A study of Mus musculus with 42 samples.

Results

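The odorant receptors (ORs) Olfr763 to Olfr827 lie in a cluster on mouse chromosome 10. They were taken by name, as every gene from Olfr763 to Olfr827 with a plain whole number and no pseudogene suffix in all 9 deposited tables. This gave 54 members among 1088 intact ORs. Their RNA was measured by pS6-IP-Seq, the sequencing of RNA pulled down with an antibody to phosphorylated ribosomal protein S6, in the olfactory epithelium of C57BL/6 mice (C57BL/6J in the study's methods) aged 20 to 22 days. Each mouse spent 1 h with a cassette that held ACT (acetophenone), TMT (2,5-dihydro-2,4,5-trimethylthiazoline) or no odor, with 3 mice per group. The liquid in the cassette was 0.01%, 0.1%, 1% or 100% odorant by volume. These percentages name the starting liquid, and the concentration that reached the epithelium is not known. The no odor mice form 4 sets of 3, and each set served 2 concentrations of 1 odorant (0.01% with 0.1%, or 1% with 100%). Dissected dorsal and ventral olfactory epithelium from mice of the same strain and ages gave total RNA-Seq, with 3 libraries each. The labels name no transgene or other agent in any group. Each pS6-IP-Seq replicate was made of littermates of the same sex, so a replicate number stands for a litter, and both sexes were used. The tables list intact ORs only, so markers of other cell types were not analysed here.

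Each olfactory sensory neuron transcribes a single OR allele, so OR transcripts label the neurons that chose each receptor. ORs are G protein-coupled receptors, and most are encoded in clusters of related genes that arose by local duplication. Each OR is confined to a zone of the epithelium along the dorsal to ventral axis. Neuronal firing raises phosphorylation of ribosomal protein S6, so the ribosomes captured with a phospho-S6 antibody are enriched in RNA of recently active neurons. In such bulk samples fewer neurons of a type and less RNA per neuron cannot be told apart.

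The 36 pS6-IP-Seq libraries held 37012 to 128805 counts on intact ORs, of which 1044 to 3760 fell on the 54 members. The 6 dorsal and ventral libraries held 155319 to 242123 OR counts, and 8438 to 12225 of these fell on members. Between 51 and 54 members had at least 1 count in each library. One library stood apart for the zone results. The ORs called ventral among the members took 1.15% of OR counts in dorsal library 2, against 0.303% and 0.144% in dorsal libraries 1 and 3. Among the odor libraries, the members' share was lowest in ACT 0.01% litter 1, at 1.61% of OR counts.

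In genome build GRCm38 the members span chr10:129010791-130214403, from Olfr763 on the plus strand to Olfr827 on the minus strand. The annotated gap between neighbouring members had a median of 11.2 kb and reached 48.8 kb between Olfr773 and Olfr774. The plus strand carries 24 members and the minus strand 30. The GENCODE M21 annotation gives each member a coding sequence of 924 to 984 bases and a merged exon length of 936 to 8466 bases. Coding sequences of member pairs shared a median of 65.8% of aligned bases over 1431 pairs, with a range of 50.4% to 99.2%. Neighbours on the chromosome shared a median of 68.6%. There were 22 pairs at or above 90% identity, and most of these close relatives were not side by side (14 of the 22).

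The closest pairs limit how well 50-base reads can be assigned. Olfr772 and Olfr773 shared 99.2% of coding bases, Olfr823 and Olfr824 98.7%, and Olfr765 and Olfr767 98.2%. Every 50-base stretch of the annotated transcripts was searched for in all other listed ORs. Of the stretches of Olfr773, 78.8% occurred in Olfr772 as well, and 52.0% of those of Olfr823 occurred in Olfr824. Olfr814 and Olfr815 shared 33.0% and 44.5% of their stretches with each other. The counts of these members are uncertain to that degree. In all, 28 of the 54 members shared more than 5% of their stretches with another listed OR. For each of these 3 pairs the 120 coding bases with the most differences are given, since only the differing bases set reads of a pair apart. They are written 5′ to 3′ on the coding strand from the GRCm38 genome, with capitals where the pair differs.
Olfr772 (chr10:129174203-129174322, minus strand): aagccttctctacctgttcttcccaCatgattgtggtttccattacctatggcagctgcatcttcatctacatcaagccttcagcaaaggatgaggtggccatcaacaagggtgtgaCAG
Olfr773 (chr10:129186603-129186722, minus strand): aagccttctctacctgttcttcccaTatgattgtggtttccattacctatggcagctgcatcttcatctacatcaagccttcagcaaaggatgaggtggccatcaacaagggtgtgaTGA
Olfr823 (chr10:130112437-130112556, minus strand): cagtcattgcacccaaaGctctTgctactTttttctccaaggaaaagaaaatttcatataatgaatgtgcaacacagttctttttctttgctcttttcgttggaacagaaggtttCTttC
Olfr824 (chr10:130126704-130126823, minus strand): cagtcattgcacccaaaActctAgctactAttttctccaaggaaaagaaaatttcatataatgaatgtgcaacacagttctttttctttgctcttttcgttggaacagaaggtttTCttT
Olfr765 (chr10:129046512-129046631, minus strand): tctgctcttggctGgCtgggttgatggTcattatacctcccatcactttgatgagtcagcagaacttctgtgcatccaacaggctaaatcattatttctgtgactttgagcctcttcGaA
Olfr767 (chr10:129079412-129079531, minus strand): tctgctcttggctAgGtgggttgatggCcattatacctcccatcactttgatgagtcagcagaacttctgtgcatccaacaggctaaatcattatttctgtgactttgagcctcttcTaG
Olfr772 and Olfr773 differed at 7 of 933 coding bases, and 4 of these are in the stretch shown. Olfr823 and Olfr824 differed at 12 of 945, with 6 shown, and Olfr765 and Olfr767 at 17 of 927, with 5 shown.

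The comparison of dorsal with ventral epithelium asked in which zone each receptor is expressed. The members were a mixture of zones: 19 of 54 (35.2%) were higher in dorsal epithelium and 16 (29.6%) were higher in ventral epithelium. Over all 1087 ORs tested the shares were 37.4% dorsal and 37.2% ventral. The members' median log2 fold change was -0.62, beside -0.65 over all ORs. The other 19 members passed the test in neither direction, and 16 of those had a log2 fold change below 0. Calls are from edgeR's quasi-likelihood test with Benjamini-Hochberg adjustment over all ORs, at adjusted p under 0.05, and levels are counts per 1000000 (CPM), scaled to the total OR counts of each library. In plain CPM, all 3 dorsal libraries lay above all 3 ventral libraries for 19 members (37.7% of all ORs), and below them for 32 members (54.5% of all ORs).

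The longest run of neighbours with the same call was dorsal. It held 10 members in a row, Olfr807 to Olfr816, over 161.5 kb, with 3 genes on the plus strand and 7 on the minus strand. Their log2 fold changes lay between 2.84 and 3.89, with adjusted p from 0.000153 to 0.000878 in edgeR. Olfr810 was the most abundant of them. It had 7050, 6160.3 and 8317 CPM in the dorsal libraries and 538, 1029 and 1011 CPM in the ventral libraries, a log2 fold change of 3.71 ± 0.57 (SE, n = 3, edgeR adjusted p = 0.000153). Olfr812 had 3725, 3123 and 4250.2 CPM in dorsal epithelium against 309, 509 and 464 CPM in ventral epithelium. Dorsal values exceeded every ventral value for each of these genes.

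The most strongly dorsal member was Olfr792, outside that run. It had 1801, 1558 and 1554 CPM in dorsal libraries and 74.4, 175 and 187 CPM in ventral libraries, with a log2 fold change of 4.16 ± 0.66 (SE, n = 3, edgeR adjusted p = 0.000158). Olfr814 (3.89 ± 0.66), Olfr822 (3.86 ± 0.63) and Olfr815 (3.82 ± 0.69) followed on the same log2 scale. The first member, Olfr763, was also dorsal, at 1194, 934 and 1224 CPM against 137, 202 and 206 CPM.

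The only other run of 4 or more called neighbours was ventral. It comprised Olfr774, Olfr775, Olfr776 and Olfr777 over 35.3 kb. Olfr776 had 45.4, 643 and 32.1 CPM in the dorsal libraries and 2398, 1900 and 1951 CPM in the ventral libraries. Its log2 fold change was -3.80 ± 0.91 (SE, n = 3, edgeR adjusted p = 0.00235). Olfr775 reached -3.57 ± 0.80, Olfr774 -3.03 ± 0.87 and Olfr777 -2.91 ± 0.73 on the log2 scale. For all 4 the highest dorsal value was that of dorsal library 2, and it stayed below every ventral value. Further along, Olfr820 (264, 1516 and 138 CPM against 5025, 3942 and 4249 CPM) and Olfr805 (74.3, 497 and 59.6 CPM against 1700, 1311 and 1494 CPM) were ventral too. A run of 5 neighbours, Olfr765 to Olfr770, passed in neither direction, with log2 fold changes from -0.88 to 0.86. The last member, Olfr827, was ventral at 620, 976 and 385 CPM against 4578, 3486 and 4706 CPM.

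**Figure D1:**
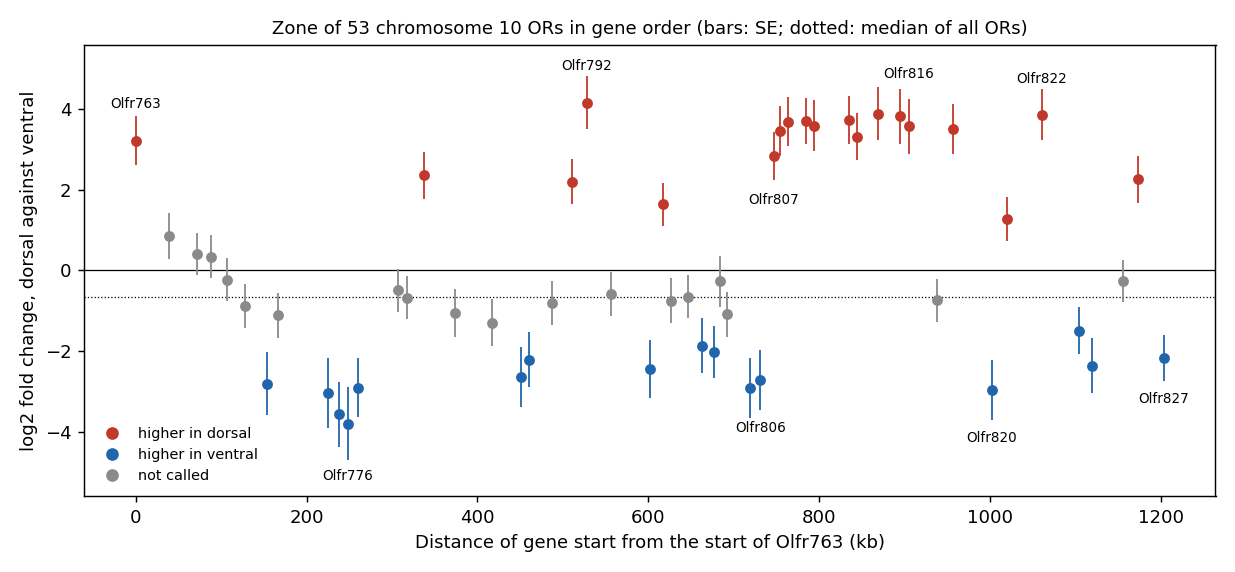
Log2 fold change of dorsal against ventral epithelium (points, with SE bars, n = 3 and 3 libraries) for 53 ORs by distance of their annotated starts from that of Olfr763 in kb, coloured by call, with the median of all ORs as a dotted line. Olfr773 is left out because 5 of its 6 libraries were at 0. The 10 dorsal ORs Olfr807 to Olfr816 lie between 2.84 and 3.89, next to the ventral pair Olfr805 and Olfr806.

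Zone changed abruptly at the edge of the dorsal run. Olfr806 starts 731.1 kb from the start of Olfr763 and was ventral, with 145, 552 and 32.1 CPM in dorsal libraries and 1574, 1337 and 1474 CPM in ventral libraries. Olfr807 starts 747.0 kb from it and was dorsal, with 958, 552 and 885 CPM in dorsal libraries and 126, 154 and 225 CPM in ventral libraries. The 250 bases before the annotated starts of these neighbours, and of Olfr763 and Olfr809, which are taken up again below, are printed 5′ to 3′ on the gene's strand (GRCm38), to show the sequence on both sides of the change in zone. Capitals mark matches of TAATNA, the core that LIM homeodomain factors such as Lhx2 bind, and of CCCNNGGG, the core of the Ebf binding site, on both strands.
Olfr806 (chr10:129741922-129742171, minus strand): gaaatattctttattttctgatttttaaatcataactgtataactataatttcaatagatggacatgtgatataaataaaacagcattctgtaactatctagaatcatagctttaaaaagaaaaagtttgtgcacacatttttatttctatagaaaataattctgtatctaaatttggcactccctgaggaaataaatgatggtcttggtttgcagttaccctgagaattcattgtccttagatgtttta
Olfr807 (chr10:129757794-129758043, minus strand): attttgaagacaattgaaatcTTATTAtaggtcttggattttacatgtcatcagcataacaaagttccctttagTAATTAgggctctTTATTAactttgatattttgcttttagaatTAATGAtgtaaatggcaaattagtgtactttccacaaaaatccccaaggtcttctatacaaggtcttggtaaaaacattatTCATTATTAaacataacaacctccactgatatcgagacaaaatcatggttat
Olfr809 (chr10:129774388-129774637, plus strand): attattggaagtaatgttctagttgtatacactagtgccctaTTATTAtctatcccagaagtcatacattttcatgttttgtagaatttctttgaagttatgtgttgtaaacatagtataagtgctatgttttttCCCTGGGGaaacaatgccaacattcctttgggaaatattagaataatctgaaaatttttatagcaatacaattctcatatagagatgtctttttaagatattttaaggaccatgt
Olfr763 (chr10:129010541-129010790, plus strand): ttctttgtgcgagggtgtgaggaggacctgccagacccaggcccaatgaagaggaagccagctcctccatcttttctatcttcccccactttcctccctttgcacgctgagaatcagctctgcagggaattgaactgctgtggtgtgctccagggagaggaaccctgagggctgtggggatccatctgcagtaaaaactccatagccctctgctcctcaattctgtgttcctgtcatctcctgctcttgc
Olfr807 held 6 matches of TAATNA in this window, 1 of them the full palindrome TAATTA, and Olfr809 held 1 of TAATNA and 1 of CCCNNGGG. Olfr806 and Olfr763 held neither. Among the 54 members, 75.9% held TAATNA, against 67.2% of the 1082 listed ORs that could be placed, and 33.3% against 22.8% held TAATTA. CCCNNGGG was found in 16.7% of members and 13.7% of ORs. TATAAA was found in 44.4% and 29.7%. Every TAATTA is also a TAATNA. Annotated starts can lie away from the true start, and a match of letters is not a binding site.

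Closely related members carried the same zone call wherever both were called. Among the 22 pairs with at least 90% coding identity, both members were called in 13 pairs, and the calls were the same in all 13. These included 8 pairs that are not neighbours, such as Olfr810 with Olfr822 (3.71 and 3.86) and Olfr774 with Olfr787 (-3.03 and -2.65). Of the 53 neighbouring pairs, 24 had calls for both members, which were the same in 18 and opposite in 6. Over all 1431 pairs, 595 had both calls, the same in 291 and opposite in 304. The median absolute difference in log2 fold change was 0.62 for close relatives, 1.28 for neighbours and 2.46 for all pairs. These are descriptions with no test, since pairs share members and near-identical genes share reads. Olfr782 and Olfr804 shared 96.7% of coding bases, yet their log2 fold changes were 2.36 (dorsal) and -1.09 (not called).

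The number of calls fell most when replicate 1 or replicate 3 was left out, which kept dorsal library 2 in the fit. Without replicate 2 the members split into 19 dorsal and 19 ventral, without replicate 1 into 14 and 4, and without replicate 3 into 14 and 3. Ventral calls fell over all ORs too. The main fit called 407 of all ORs dorsal and 404 ventral. These counts were 406 and 410 without replicate 2, 340 and 205 without replicate 1, and 353 and 201 without replicate 3. Without TMM scaling there were 17 dorsal and 22 ventral members (378 and 482 of all ORs), and without the replicate block 19 and 19 (416 and 437). No called member took the opposite call under any of these settings, and all 10 members from Olfr807 to Olfr816 stayed dorsal in each. Leaving out replicate 2, which holds the dorsal library with the most counts on ventral members, kept all 35 calls.

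Without odor, the members took 2.65% to 3.62% of OR counts in the 12 pS6-IP-Seq libraries. Per gene, the highest levels belonged to Olfr788 (median 2683 CPM, range 2011 to 3759), Olfr796 (1969, 1213 to 2513), Olfr805 (1695, 1260 to 2467), Olfr820 (1646, 1104 to 2459) and Olfr777 (1444, 706 to 1801). All 5 were ventral. The lowest were Olfr773 (median 0, range 0 to 56.9 CPM), Olfr774 (25.2, 0 to 151), Olfr802 (97.2, 0 to 304), Olfr823 (116, 39.4 to 302) and Olfr815 (141, 70.4 to 377). The range of Olfr788 lay above that of Olfr777 and overlapped those of Olfr796, Olfr805 and Olfr820. Neighbours in the order overlapped throughout both sets, and at the low end only the ranges of Olfr773 and Olfr815 were apart.

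Per kb of merged exons the first 3 places were unchanged. Olfr788 had 565 CPM per kb, Olfr796 554 and Olfr805 512, followed by Olfr812 with 476 and Olfr821 with 363. The median over the 54 members was 149 CPM per kb. Olfr773 was listed at 0 in most libraries, while Olfr772, which holds 78.8% of its 50-base stretches, had a median of 557 CPM.

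**Figure D2:**
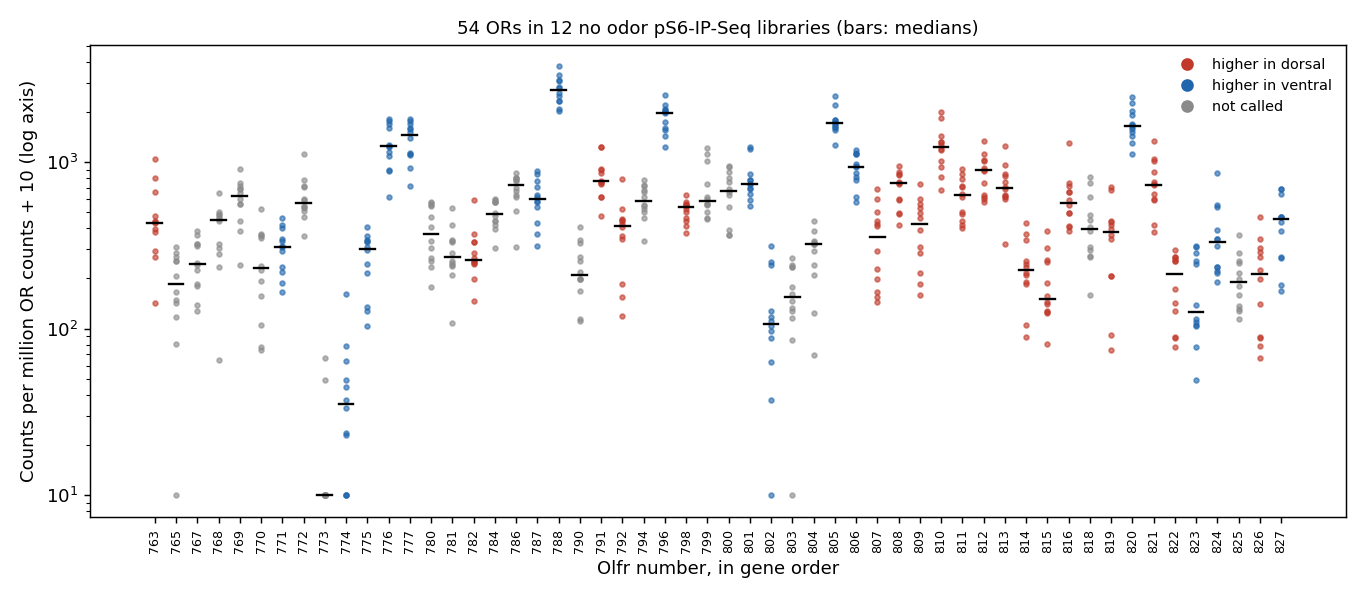
CPM plus 10 on a log axis (points, 12 no odor pS6-IP-Seq libraries; black bars, medians) for 54 ORs in gene order, coloured by zone call. Olfr788, Olfr796, Olfr805, Olfr820 and Olfr777 have the highest medians and Olfr773 and Olfr774 the lowest.

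Levels in pS6-IP-Seq without odor were then set beside total RNA, taken as the mean of the dorsal and ventral group means. The 19 dorsal members had a median ratio of pS6 to total RNA of 0.455, and 1 of them exceeded 1. Over all 397 dorsal ORs with a value the median was 0.465, and 15.6% exceeded 1, beside 5.26% of the members. The 16 ventral members had a median ratio of 0.665 with 5 above 1, whereas all 404 ventral ORs had a median of 1.09 with 54.7% above 1. The 18 members called in neither zone had a median of 0.965, with 7 above 1 (38.9%), beside 0.827 and 41.8% over all 239 such ORs. The spread among ventral members was wide. Olfr805 had a ratio of 1.98 and Olfr788 of 1.87, while Olfr827 had 0.18 (442 CPM in pS6-IP-Seq, 2459 CPM in total RNA) and Olfr802 had 0.209. Among dorsal members Olfr810 had the highest total RNA level (4018 CPM) and a ratio of 0.304. The 2 assays used different RNA preparations, and total RNA of the whole epithelium was not analysed here, so ratios near 1 carry no absolute meaning and no test was made.

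**Figure D3:**
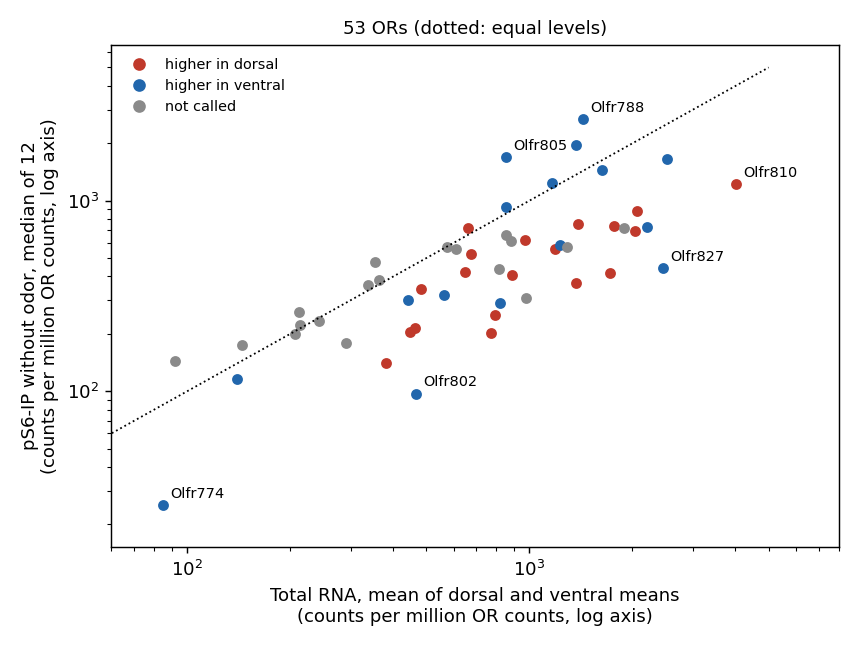
Median pS6-IP-Seq level without odor (12 libraries) against the mean of the dorsal and ventral RNA-Seq group means, both in CPM on log axes, for 53 ORs coloured by zone call, with equal levels dotted. Olfr805 and Olfr788 lie above the line, at ratios of 1.98 and 1.87, and Olfr827 lies farthest below it, at 0.18.

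The 8 comparisons of odor with no odor asked which ORs became enriched in active neurons. No member was enriched by either odorant at any concentration in edgeR's quasi-likelihood test with litter as a block. With ACT 0.01% and with ACT 100% this test called 0 of all 1088 ORs higher. The study reports enriched ORs at both of these concentrations. The lack of enriched members there therefore cannot show a lack of response. The number of enriched members was also 0 with edgeR's likelihood ratio test and with DESeq2. It was 1 with ACT 100% without litter 1 (Olfr819) and 1 with TMT 0.1% without litter 3 (Olfr809), both described below. In the other direction there were 4 calls on 3 genes. Olfr806 fell with ACT 1%, and Olfr763, Olfr806 and Olfr809 fell with TMT 100%. Over all ORs, 1.38% were higher and 0.276% lower with ACT 1%, and 11.6% were higher and 3.31% lower with TMT 100%. Among the members, 3 of 54 (5.56%) were lower with TMT 100%.

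At the other concentrations no member was called in either direction by edgeR's quasi-likelihood test, its likelihood ratio test or DESeq2. The share of all ORs called was 0.0% with ACT 0.01%, 0.643% with ACT 0.1%, 0.0% with ACT 100%, 0.46% with TMT 0.01%, 2.02% with TMT 0.1% and 4.87% with TMT 1%. At an unadjusted p under 0.05 there was 1 member with ACT 0.01% (2.57% of all ORs), 1 with ACT 0.1% (3.49%), 4 with ACT 100% (14.2%), 1 with TMT 0.01% (5.15%), 2 with TMT 0.1% (7.17%) and 3 with TMT 1% (9.28%). With TMT 100% there were 7 members (13.0%), all lower, beside 23.2% of all ORs in either direction. The members at unadjusted p under 0.05 were lower than no odor, apart from Olfr809 with TMT 0.1%. With ACT 100% the quasi-likelihood test called 0 of all ORs, while the likelihood ratio test called 37 higher and DESeq2 22, none of them a member.

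The members with the smallest p in these comparisons differed from one concentration to the next. With ACT 0.01% they were Olfr822 (log2 fold change -1.99 ± 0.70), Olfr804 and Olfr813, and with ACT 0.1% Olfr765 (-1.28 ± 0.53), Olfr792 and Olfr770. With ACT 1% Olfr786 (-0.61 ± 0.35) and Olfr769 (-0.61 ± 0.39) followed Olfr806. With ACT 100% they were Olfr809, Olfr799 (-1.04 ± 0.41) and Olfr772 (-0.89 ± 0.40). For TMT they were Olfr787 (-0.89 ± 0.40), Olfr768 and Olfr827 at 0.01%, and Olfr809, Olfr818 (-0.90 ± 0.44) and Olfr801 at 0.1%. With TMT 1% they were Olfr792 (-1.29 ± 0.47), Olfr799 (-0.98 ± 0.36) and Olfr819 (-1.34 ± 0.50), which were called lower without TMM scaling. Apart from Olfr806 with ACT 1%, none of these passed the adjusted test.

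The members' medians lay furthest below those of all ORs with 100% of either odorant, compared with no odor. With TMT 100% their median log2 fold change was -0.41, beside -0.08 over all ORs, and 44 of 54 (81.5%) were below 0, beside 55.8% of all ORs. With ACT 100% the median was -0.39 beside 0.00, and 43 of 54 (79.6%) were below 0, beside 49.6%. At lower concentrations the members' medians were closer to those of all ORs. They were -0.05 with ACT 0.01%, -0.07 with ACT 0.1%, -0.06 with ACT 1%, -0.12 with TMT 0.01%, 0.00 with TMT 0.1% and -0.20 with TMT 1%. Without litter 3 the TMT 100% median was -0.25, beside -0.11 over all ORs.

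The share of OR counts on the members was 3.23%, 3.21% and 3.32% in the no odor set for high TMT and 2.54%, 2.15% and 1.79% with TMT 100%, so the groups did not overlap. With TMT 1% it was 2.43%, 2.35% and 2.82%, also below every control of that set and overlapping the values at 100%. The no odor sets differed as well. The share was 2.93%, 2.65% and 2.86% in the set for low TMT, below the set for high TMT. Those values overlapped TMT 1% but lay above TMT 100%. In the no odor set for low ACT the share was 3.09%, 3.17% and 3.38%. The share was 3.31%, 3.62% and 3.22% in the no odor set for high ACT and 2.48%, 2.91% and 1.98% with ACT 100%, again without overlap. With ACT 1% it was 2.43%, 3.66% and 2.83%, which overlapped both. A share also falls when other ORs rise, so it is relative to the rest of the repertoire. In CPM, 22 members (40.7%) lay below all 3 no odor libraries in all 3 TMT 100% libraries, against 21.4% of all ORs, and 1 member lay above them, against 12.7%. With ACT 100%, 10 members (18.5%) lay below, against 12.9% of all ORs, and 0 above, against 6.53%.

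**Figure D4:**
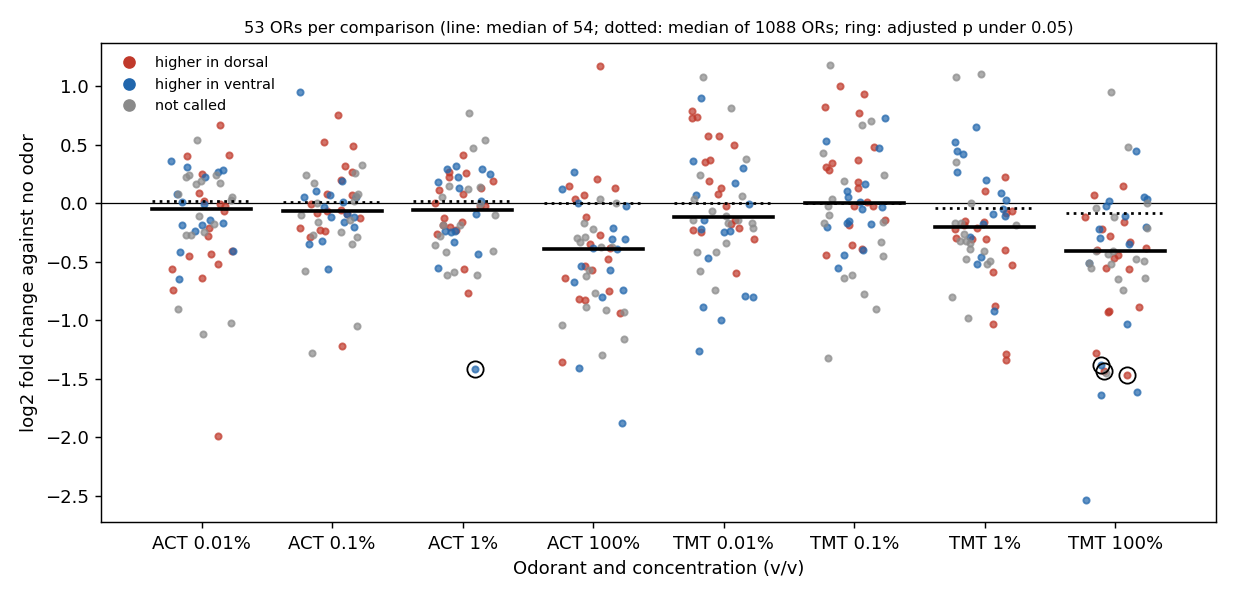
Log2 fold change against no odor for 53 ORs (points, coloured by zone call) in each of 8 comparisons of 3 with 3 libraries, with the median of the 54 members as a line and the median of 1088 ORs dotted. Olfr773 is left out because most of its libraries were at 0. Rings mark adjusted p under 0.05: Olfr806 with ACT 1%, and Olfr763, Olfr806 and Olfr809 with TMT 100%, all below 0.

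Olfr806 had the smallest adjusted p. It had 1172, 1104 and 804 CPM in the no odor set for high TMT and 639, 406 and 90 CPM with TMT 100%. Every exposed mouse lay below every control, and the lowest value came from litter 3. The log2 fold change was -1.38 ± 0.39 (SE, n = 3, edgeR adjusted p = 0.0039), and -0.88 without litter 3 (adjusted p = 0.25). With ACT 1% it had 258, 165 and 416 CPM, against 1108, 607 and 768 CPM in the no odor set for high ACT, a log2 fold change of -1.42 ± 0.38 (SE, n = 3, edgeR adjusted p = 0.0136). The groups did not overlap, but the call was lost in DESeq2 (adjusted p = 0.653), without the replicate block (0.573), with a mean count of at least 10 (0.0629), and in the fit of 18 libraries (0.865). With ACT 100%, on the same control mice, it had 723, 500 and 179 CPM, a log2 fold change of -0.80 ± 0.44 that did not pass (edgeR adjusted p = 0.463).

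Olfr805, the neighbour of Olfr806, shares 93.6% of its coding bases and 8.65% of the 50-base stretches of Olfr806. It did not pass the test in either comparison. It had 1637, 1785 and 1583 CPM without odor and 1566, 1183 and 1170 CPM with TMT 100%, a log2 fold change of -0.11 ± 0.27 (SE, n = 3, edgeR adjusted p = 0.881). With ACT 1% its log2 fold change was 0.25 ± 0.27. The difference between these genes was not tested. The 120 aligned coding bases in which they differ most are given here, with the 19 differing bases in capitals.
Olfr805 (chr10:129723225-129723344, minus strand): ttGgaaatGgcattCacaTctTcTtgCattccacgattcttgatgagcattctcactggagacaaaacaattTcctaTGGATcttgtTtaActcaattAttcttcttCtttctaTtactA
Olfr806 (chr10:129738598-129738717, minus strand): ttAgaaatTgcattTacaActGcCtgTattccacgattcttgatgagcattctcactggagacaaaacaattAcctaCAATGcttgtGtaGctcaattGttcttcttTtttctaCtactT

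Olfr809, a dorsal member within the run from Olfr807 to Olfr816, had 482, 587 and 729 CPM in the no odor set for high TMT. With TMT 100% it had 350, 141 and 105 CPM. The exposed values all lay below the controls of that set, with a log2 fold change of -1.43 ± 0.49 (SE, n = 3, edgeR adjusted p = 0.0254). The no odor set for low TMT, at 175, 207 and 300 CPM, lay within the range of the TMT 100% values. It had 378, 550 and 453 CPM against 110, 282 and 120 CPM with ACT 100%, which did not pass (-1.36 ± 0.49, edgeR adjusted p = 0.21), though again the groups did not overlap. With TMT 0.1% litters 1 and 2 lay above every control of the low set and litter 3 did not, at 407, 954 and 222 CPM against 175, 207 and 300 CPM without odor (1.00 ± 0.41, edgeR adjusted p = 0.394, and 1.72 with adjusted p = 0.0419 without litter 3). The TMT 100% call was lost without litter 2 (-1.28, adjusted p = 0.18), without litter 3 (-0.92, 0.50) and in DESeq2 (0.121). Its closest relative, Olfr813, did not pass with TMT 100% (-0.38 ± 0.37).

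Olfr763, the first member, had at most 65.9% coding identity to another member (Olfr796). It had 1034, 282 and 427 CPM without odor and 206, 177 and 105 CPM with TMT 100%, a log2 fold change of -1.47 ± 0.50 (SE, n = 3, edgeR adjusted p = 0.0274). The control of litter 1 was far above the others, and without litter 1 the log2 fold change was -1.0 (adjusted p = 0.542). The call was also lost without litter 3 (-1.34, 0.189) and in DESeq2 (0.141). Of its 50-base stretches 34.1% occur in Olfr9, the listed OR that lies 18.7 kb before it and is not a member. Olfr9 was lower with TMT 100% too, with 639, 441 and 840 CPM against 2343, 822 and 1232 CPM (-0.88 ± 0.30, edgeR adjusted p = 0.0299). Reads shared by these genes cannot be separated here.

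**Figure D5:**
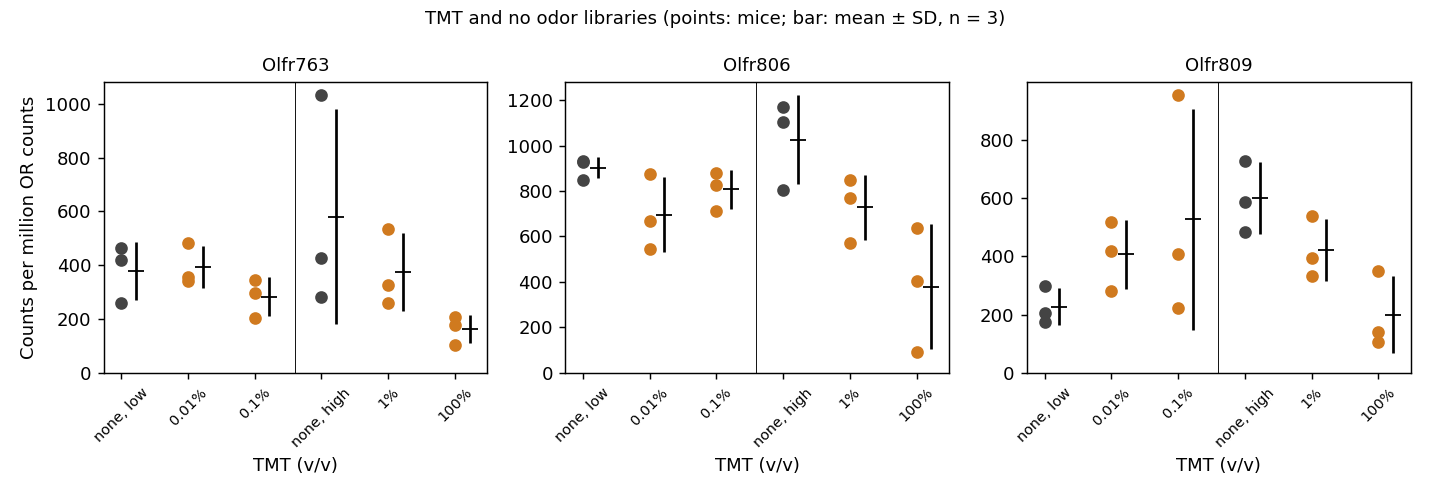
CPM of Olfr763, Olfr806 and Olfr809 in the TMT and no odor libraries (points, single mice; bars, mean ± SD, n = 3), with the sets for low and high concentrations split by a line. All 3 mice at 100% lie below the 3 no odor mice of the high set for each gene.

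By zone, the 19 dorsal members had a median log2 fold change of -0.44 with TMT 100%, beside -0.34 over all 407 dorsal ORs. The 16 ventral members had -0.26, beside 0.03 over all 404 ventral ORs, and the 19 members called in neither zone had -0.43, beside -0.01. With ACT 100% the medians were -0.38, -0.39 and -0.57 for dorsal, ventral and uncalled members, beside -0.07, 0.01 and 0.00 over all ORs of those calls. The median of each of these sets of members was below that of the ORs with the same call.

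The highest concentrations were also compared directly with 1%. No member passed between ACT 100% and ACT 1% (0.551% of all ORs called) or between TMT 100% and TMT 1% (7.17% of all ORs) in edgeR. At an unadjusted p under 0.05 there were 2 members for ACT (12.8% of all ORs) and 6 for TMT (17.7%), the latter all lower. The members' median log2 fold change was -0.30 between ACT 100% and ACT 1%, beside 0.01 over all ORs, and -0.05 between TMT 100% and TMT 1%, beside -0.01. DESeq2 called no member in either, and the likelihood ratio test called Olfr823 for TMT. Olfr823 had 256, 207 and 77.1 CPM with TMT 1% and 0, 35.3 and 30.0 CPM with TMT 100%, a log2 fold change of -2.68 ± 0.91 (SE, n = 3, edgeR adjusted p = 0.0805). Olfr806 (-1.05 ± 0.41) and Olfr809 (-1.13 ± 0.45) came next by p.

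The response to ACT 100% was compared with the response to TMT 100% in a single fit. No member differed between them in edgeR (0.184% of all ORs called), and 3 members had an unadjusted p under 0.05 (10.6% of all ORs). DESeq2 and the likelihood ratio test called none either. Olfr772 (-1.38 ± 0.60) and Olfr777 (-1.03 ± 0.50) followed Olfr819, which is taken next. The smallest p was that of the dorsal member Olfr819, with a difference of 2.44 ± 0.80 on the log2 scale (n = 3, edgeR adjusted p = 0.243). It had 351, 869 and 1763 CPM with ACT 100% against 432, 702 and 197 CPM without odor. With TMT 100% it had 165, 106 and 225 CPM against 672, 352 and 427 CPM. The ACT values of litters 2 and 3 were above their controls and that of litter 1 was below. Without litter 1, Olfr819 was called higher with ACT 100% (log2 fold change 1.84, adjusted p = 0.0114). Without that litter 82 ORs in all were called higher with ACT 100%, against 0 with it. Olfr819 shares 25.02% of its 50-base stretches with Olfr247, which lies within the span but is not a member by its number. Olfr247 had 110, 521 and 1091 CPM with ACT 100% against 135, 209 and 138 CPM, the same order of litters (1.73 ± 0.60, edgeR adjusted p = 0.21).

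A block of 73 ORs on chromosome 9, Olfr881 to Olfr985, gave different counts in the same fits. With ACT 0.1% 4 of them were higher and with ACT 1% 3, whereas no chromosome 10 member was higher. Over all ORs 0.643% were called with ACT 0.1% and 1.38% were higher with ACT 1%, so 0 among 54 members is close to those shares. With TMT 100% 4 of the 73 were higher and 2 lower, beside 11.6% and 3.31% of all ORs. With TMT 1% 0 of the 73 were higher and 2 lower, beside 51 and 2 of all 1088 ORs. By zone, 43 of the 73 were dorsal and 10 ventral, beside 37.4% and 37.2% of all ORs. The block's median log2 fold change with ACT 100% was 0.33, beside -0.39 for the 54 members and 0.00 over all ORs. The difference between the blocks was not tested.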

How the data were processed

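pS6-IP-Seq was performed on 36 mice (12 no odor, 24 exposed) and total RNA-Seq on 6 dorsal and ventral libraries. The authors mapped 50-base reads with STAR to GRCm38, with an annotation that included OR untranslated regions, and quantified them with RSEM. The deposited tables hold expected counts, rounded by the authors to whole numbers, for intact ORs, and group means (signal, scaled by size factors of all genes), which were used only to recover those size factors. The deposited fold changes and p-values of the authors' edgeR comparisons were not used. RNA of the dorsal and ventral samples was extracted as the study's methods state, which differ from the sample labels. For 0.1% TMT replicate 1 the stimulant label was used, although another label names a 1% file.

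Members and lists were chosen with earlier results of these data known. Expected counts were tested with edgeR 4.0.16 (quasi-likelihood, TMM over ORs, replicate block, no filter, Benjamini-Hochberg over 1088 or 1087 ORs), checked on simulated data. SEs were derived from the log2 fold change and the F statistic. Mice of the same number were littermates, per the study's methods. Their deviations correlated at 0.044 to 0.185 on average (numbers that differ, -0.093 to -0.023). For dorsal against ventral the numbers gave -0.229 against 0.115. In all comparisons the deviations were taken from the group mean, which ties these averages to opposite signs. The averages therefore cannot decide whether the dorsal and ventral libraries were paired. The block was kept because the study's R code sets it for these libraries. The study reports 3 mice for the zonal RNA-Seq, and its R code gives the same subjects to both zones. Beyond that the assignment of libraries to animals was not checked. With the block, the dorsal against ventral p-values measure how the difference between libraries of the same number varied across numbers. That is a spread between animals only if the subjects are as the R code gives them. Named members were those called, the 6 largest changes per direction with a mean count of at least 10 where more than 12 were called, and the 3 with the smallest p where fewer than 3 were called. For levels the 5 highest and 5 lowest were named, and for position the end members and runs of at least 4. Other members were named for relatedness after their values were seen. Sequences and positions are from GRCm38 and GENCODE M21, and 138 of 138 member transcripts matched the genome. Identity was computed on coding sequences, since protein sequences were not used here.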

Additional observations from a re-analysis of the deposited data

How the results depend on the processing

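The comparisons were repeated with DESeq2, the likelihood ratio test, other scalings, a filter on mean counts, without the replicate block, in a fit of 18 libraries and without each replicate. Of 147 alternative values for the counts of called members and the level, 121 stayed within the stated limits (a count within 1.5 times, a level within 1 SD), and no named member changed direction. The main fit called members only with ACT 1%, with TMT 100% and for dorsal against ventral. Many of the unchanged values were therefore counts of 0 that stayed 0. For ACT 1% the count fell from 1 to 0 in DESeq2, with a mean count of at least 10, without the replicate block, in the fit of 18 libraries, and with the likelihood ratio test on all-gene size factors (an alternative chosen after seeing the data, as the study combined them). For TMT 100% the count of 3 became 1 in DESeq2, 7 without TMM, 8 with all-gene size factors and 10 with the likelihood ratio test on those factors, all lower. Over all ORs, 36 were lower in the main fit and 10, 101, 123 and 143 in these settings. For TMT 1% the member count was 3 without TMM, where 11 of all ORs were lower. For TMT 100% against TMT 1% it was 1 with the likelihood ratio test, 7 with all-gene size factors, 1 without the replicate block and 9 with the likelihood ratio test on all-gene size factors. Over all ORs, 24, 121, 18 and 134 were lower in these settings, and 77, 48, 68 and 50 higher. For ACT 100% minus TMT 100% the member count was 1 with that combination, where 18 of all ORs were higher and 3 lower. The replicate block changed no other call of an odor comparison. All-gene size factors moved the median of all ORs from -0.08 to -0.38 with TMT 100%. The members' median minus that of all ORs lay between -0.34 and -0.31 over the settings that kept all replicates. A change of scaling shifts members and other ORs alike, so this difference could hardly move there. It was -0.36, -0.37 and -0.14 without replicates 1, 2 and 3. For dorsal against ventral, all-gene size factors moved the median of all ORs from -0.65 to -1.07.

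Without 1 replicate at a time, the count ranged from 0 to 1 with ACT 1%, 0 to 1 with ACT 100%, 0 to 1 with TMT 0.1%, 0 to 3 with TMT 100% (0 without replicate 3), 0 to 1 for ACT 100% against ACT 1%, 0 to 1 for TMT 100% against TMT 1%, 0 to 1 for ACT 100% minus TMT 100%, and 17 to 38 for dorsal against ventral, where the main count was 35. Over all ORs, 8, 33 and 9 were lower with TMT 100% without replicates 1, 2 and 3. The members' median level was 149 CPM per kb of exons and 457 per kb of coding sequence, by the shorter length. The cause of the other differences was not tested. The depth of 1044 to 3760 counts over 54 members limits low members such as Olfr823 and Olfr773.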
